A study of Rattus norvegicus with 6 samples.

Results

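The zinc transporters and metallothioneins described here are 5 genes: the metallothioneins Mt1 and Mt3 and the zinc exporters Slc30a1, Slc30a3 and Slc30a4. They were chosen by name. All non-control probes of each gene were taken, which gave 5 probes, 1 per gene and each spotted once, of 30367 non-control probes on the array and 15154 genes with a named probe. The 5 probes were well above background on 6 of 6 arrays, and none of their spots was marked as saturated, so all 5 passed the filter on dim probes.

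The study measured RNA of the hippocampus of male Wistar rats by 1-colour microarray. Of 6 samples, 3 came from rats whose testes, the main source of circulating androgen, had been removed (orchidectomized), and 3 came from sham-operated rats. Surgery was at 2 months of age and tissue was taken 2 weeks later. The labels name no genetic alteration or hormone replacement in either group, and they call the 3 samples of a group biological replicates without saying whether animals were pooled.

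Zinc is stored in the synaptic vesicles of many glutamatergic neurons, most densely in the mossy fibres that run from dentate granule cells to hippocampal field CA3, and it is released with glutamate. Free zinc in the cytoplasm is kept low by exporters of the Slc30 family, which move zinc out of the cytoplasm into vesicles or out of the cell, and by metallothioneins, small cysteine-rich proteins that bind zinc and copper. Importers of the Slc39 family bring zinc into the cytoplasm. When zinc rises, the transcription factor Mtf1 binds metal response elements in the promoters of metallothionein genes and of Slc30a1 and raises their transcription.

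Levels are given as log2 intensity with the 75th percentile of all probes of that array subtracted, so a level of 0 lies at that percentile and a step of 1 is a 2-fold step. A probe's level can be compared between arrays but not with the level of another probe. Differences are orchidectomized minus sham.

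The array labelled sham 2 stood apart from the other 5 and bears on every value below. Its correlation with each of the other arrays over all probes was between 0.876 and 0.880, against 0.983 to 0.993 among the other 5. Among 9 glutamatergic neuron markers, 9 were lower on the array labelled sham 2 than on any other array, and 4 of them (Slc17a7, Grin2a, Prox1 and Tbr1) were not well above background there. Of 10 tested choroid plexus markers, 9 were higher on it than on any other array, and their mean level was 4.61, against -4.87 to -3.08 on the other 5 arrays. All results are therefore given with 6 arrays and again with 3 orchidectomized arrays against sham 1 and sham 3. In bulk tissue, fewer cells of a type and less RNA per cell cannot be told apart.

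None of the 5 genes passed the test in either comparison. In limma fits with Benjamini-Hochberg adjustment, 0 of 5 had an adjusted p under 0.05 and 0 of 5 an unadjusted p under 0.05, in the 6-array comparison as well as in that without the array labelled sham 2. Of all tested probes, 0% of 24630 passed the adjusted threshold over 6 arrays and 0.731% the unadjusted one, while without the array labelled sham 2 the shares were 0% and 2.71% of 25208. The median difference of the 5 genes was -0.39 in the 6-array comparison and -0.15 in the other, against a median of -0.02 over all tested probes in both. Mt1 was the one member whose groups did not overlap, and it was lower in the orchidectomized animals in both comparisons. Groups did not overlap in 8.0% of all probes over 6 arrays (3.26% with orchidectomized higher and 4.74% lower) and in 16.3% once the array labelled sham 2 was left out (6.24% higher and 10.0% lower).

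**Figure D1:**
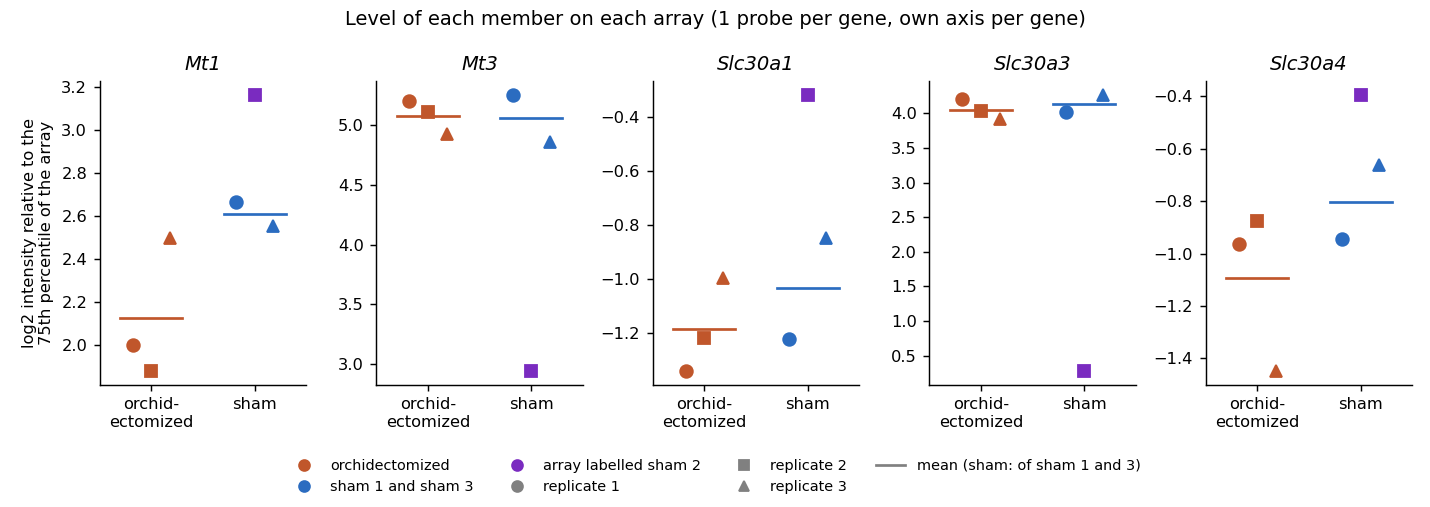
Log2 intensity minus the array's 75th percentile (vertical axis, one panel and one scale per gene) of the 5 probes on the 3 orchidectomized and the 3 sham arrays, each point 1 array and each bar a mean, for sham that of sham 1 and sham 3. Mt1 lies lower on all 3 orchidectomized arrays than on all 3 sham arrays, while for Mt3 and Slc30a3 the array labelled sham 2 lies far below the other 5.

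Mt1 encodes a metallothionein made in many cell types and abundant in astrocytes in the brain, and its transcription follows zinc, copper and glucocorticoids. Its levels were 2.00, 1.88 and 2.5 on orchidectomized arrays 1 to 3, against 2.66, 3.16 and 2.55 on sham arrays 1 to 3. The highest orchidectomized array lay just under the lowest sham array, so the groups were apart by a narrow gap, and the array labelled sham 2 was the highest of all. The group means were 2.12 ± 0.33 in orchidectomized and 2.79 ± 0.32 in sham animals (SD, n = 3 each), a difference of -0.67 with SE 0.27 and a 95% interval of -1.35 to 0.01, or 1.59-fold lower in the orchidectomized group. In the limma fit the unadjusted p was 0.0527 and the adjusted p 0.775, and 0.820% of all tested probes had a p as small or smaller. Without the array labelled sham 2 the sham mean was 2.61 ± 0.08 (n = 2), and the difference was -0.48 with SE 0.21 and an interval of -1.01 to 0.05, or 1.40-fold lower. The unadjusted p in that limma fit was 0.0675 and the adjusted p 0.988, with 3.82% of probes at or under it. The gap between the groups closed when the background was corrected with normexp and with the authors' deposited values, where the groups overlapped although the mean stayed lower in the orchidectomized animals.

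Slides and scan days were not balanced between the groups, since only 1 slide (orchidectomized 3 with sham 1) and only the first scan day (all 3 orchidectomized arrays with sham 1) held both. Within that slide the difference for Mt1 was -0.17, and within that scan day -0.54. Both had the sign of the pooled value, and the slide value was the smaller. The astrocyte markers, a list of 7 genes, had mean levels of 2.62 to 2.68 on the orchidectomized arrays, against 2.62 and 2.47 on sham 1 and sham 3, and -2.04 on the array labelled sham 2, where 7 of 7 were lower than on any other array. Mt1 was at its highest on the array labelled sham 2, on which neuronal and choroid plexus markers also stood apart. Choroid plexus markers were higher in orchidectomized animals than in sham 1 and sham 3 in 10 of 10 tested genes, with a median difference of 0.77. Of these, 3 had a limma unadjusted p under 0.05, against 2.71% of all tested probes. In that comparison 5 of 6 oligodendrocyte markers were lower, with a median of -0.46, and 9 of 9 glutamatergic neuron markers, with a median of -0.16. Over all tested probes 44.9% were higher. In the other lists, 4 of 7 GABAergic interneuron, 5 of 7 astrocyte, 3 of 5 microglia, 3 of 4 endothelial, 4 of 5 meninges and 1 of 4 ependymal markers were higher. The part of these cell types in the values of the 5 genes was not tested.

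Mt1 also held the most metal response element cores of the 5 promoters. The RefSeq promoters of build GRCr8, each 300 bases from 250 before to 50 after the annotated gene start, were searched on both strands for the core of the metal response element, spelled TGCACNC or TGCGCNC. The promoters of Mt1, Mt3 and Slc30a1 are shown because these genes differ in how many cores they hold, with every match in capitals. Mt1 lies at chr19:10832926-10833225 on the minus strand, Mt3 at chr19:10856031-10856330 on the minus strand and Slc30a1 at chr13:106021769-106022068 on the plus strand, and each is written 5′ to 3′ in the direction of transcription.
Mt1: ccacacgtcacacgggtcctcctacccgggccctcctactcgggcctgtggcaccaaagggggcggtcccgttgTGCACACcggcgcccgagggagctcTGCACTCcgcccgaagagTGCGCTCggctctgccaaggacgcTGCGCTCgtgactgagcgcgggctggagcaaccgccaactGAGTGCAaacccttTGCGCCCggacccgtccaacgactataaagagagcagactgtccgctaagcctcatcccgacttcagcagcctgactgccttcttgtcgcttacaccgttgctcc
Mt3: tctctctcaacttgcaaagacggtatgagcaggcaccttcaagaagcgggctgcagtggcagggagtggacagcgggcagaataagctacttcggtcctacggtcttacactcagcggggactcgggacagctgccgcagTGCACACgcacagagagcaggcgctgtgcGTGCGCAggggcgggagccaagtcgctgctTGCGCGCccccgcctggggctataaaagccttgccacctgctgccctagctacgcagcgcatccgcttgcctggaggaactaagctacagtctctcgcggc
Slc30a1: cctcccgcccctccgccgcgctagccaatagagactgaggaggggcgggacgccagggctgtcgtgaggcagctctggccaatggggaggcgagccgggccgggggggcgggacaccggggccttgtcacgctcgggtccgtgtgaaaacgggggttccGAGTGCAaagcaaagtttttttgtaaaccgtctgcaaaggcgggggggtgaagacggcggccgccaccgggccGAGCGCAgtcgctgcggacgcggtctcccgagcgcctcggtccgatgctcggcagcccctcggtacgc

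The Mt1 promoter held 6 matches, 5 on the strand of the gene, a number reached by 0.0388% of 33469 RefSeq promoters. The Mt3 promoter held 3 matches and the Slc30a1 promoter 2, numbers reached by 1.68% and 6.36% of promoters. The Slc30a4 promoter (chr3:130228839-130229138, minus strand) also held 3, and the Slc30a3 promoter (chr6:30997164-30997463, plus strand) held 0. At least 1 match was present in 24.2% of all promoters, and no matches overlapped in these 5. The palindromic consensus element of the androgen and glucocorticoid receptors, an inverted repeat of AGAACA around a short spacer, was in none of the 5 windows and in 0.0149% of promoters. A match describes the letters of this window and not a site in use.

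**Figure D2:**
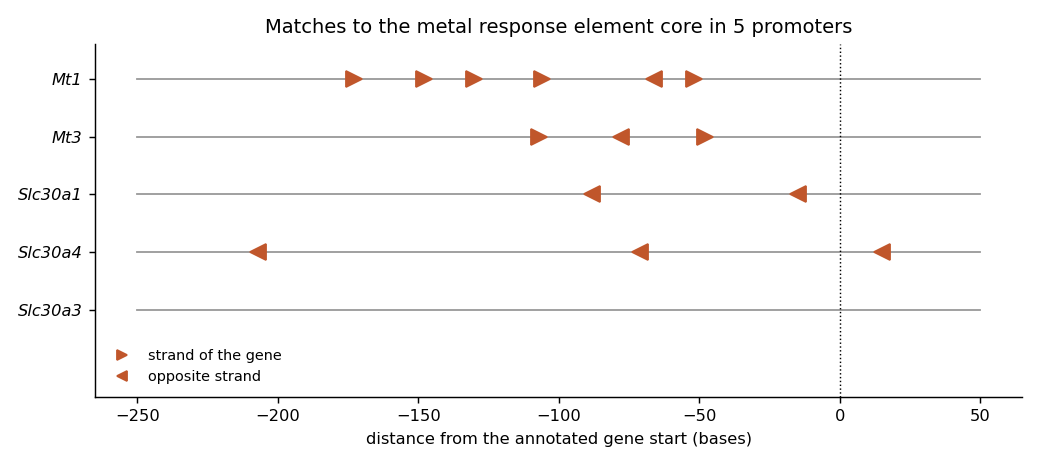
Positions of matches to the metal response element core (arrowheads, pointing along the strand that holds the core) in bases from the annotated start of each gene, in windows from 250 before to 50 after it. Mt1 has 6 matches, Mt3 and Slc30a4 3 each, Slc30a1 2 and Slc30a3 none.

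Mt3 encodes the metallothionein found mainly in the brain, also called growth inhibitory factor, which is made in zinc-rich glutamatergic neurons and in astrocytes and is little induced by metals. Its levels were 5.20, 5.11 and 4.93 on orchidectomized arrays 1 to 3, against 5.25, 2.95 and 4.86 on sham arrays 1 to 3. The array labelled sham 2 was the lowest by far, and the remaining 2 sham arrays lay on either side of the 3 orchidectomized arrays. The means were 5.08 ± 0.14 in orchidectomized and 4.35 ± 1.23 in sham animals, with a difference of 0.73 (SE 0.62, 95% interval -0.83 to 2.28, limma unadjusted p = 0.293, adjusted p = 0.775). When the array labelled sham 2 was left out, the sham mean was 5.06 ± 0.28, and the difference was 0.02 (SE 0.18, interval -0.41 to 0.46, limma adjusted p = 0.993). The interval of the 5 arrays runs from 0.751-fold to 1.37-fold. Within the shared slide the difference was -0.33 and within the shared scan day -0.17, so the sign turned in both. Mt3 was bright, and its median spot signal on sham 3 was 65231, close to the saturation value of 65292, although the spot was not marked as saturated. Whether the top of the scale compressed its differences was not tested.

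Slc30a1, or ZnT1, is the exporter of the plasma membrane that moves zinc out of the cell. Its levels were -1.34, -1.22 and -1.0 on orchidectomized arrays 1 to 3, against -1.22, -0.32 and -0.85 on sham arrays 1 to 3. The groups overlapped, and the array labelled sham 2 was the highest. The means were -1.18 ± 0.17 in orchidectomized and -0.80 ± 0.45 in sham animals, a difference of -0.39 (SE 0.28, 95% interval -1.09 to 0.31, limma unadjusted p = 0.222, adjusted p = 0.775). Without the array labelled sham 2 the sham mean was -1.03 ± 0.27, and the difference was -0.15 (SE 0.18, interval -0.60 to 0.30, limma adjusted p = 0.988), 0.22 within the shared slide and 0.04 within the shared scan day. The sign within both batches was opposite to the pooled one.

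Slc30a3, or ZnT3, is the transporter that loads zinc into synaptic vesicles, and mice without it lack zinc in those vesicles. Its levels were 4.21, 4.03 and 3.92 on orchidectomized arrays 1 to 3, against 4.01, 0.28 and 4.27 on sham arrays 1 to 3. The other 5 arrays lay within a narrow band, and the array labelled sham 2 fell far outside it. The means were 4.05 ± 0.15 in orchidectomized and 2.85 ± 2.23 in sham animals, a difference of 1.20 (SE 1.1, 95% interval -1.54 to 3.94, limma unadjusted p = 0.321, adjusted p = 0.775). Sham 1 and sham 3 alone had a mean of 4.14 ± 0.18, and the difference was then -0.09 (SE 0.16, interval -0.48 to 0.30, limma adjusted p = 0.988), so the sign turned when 1 array was left out. Within the shared slide the difference was -0.10 and within the shared scan day 0.04.

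Slc30a4, or ZnT4, moves zinc into endosomes and other vesicles, and in mice its loss leaves milk poor in zinc. Its levels were -0.96, -0.87 and -1.45 on orchidectomized arrays 1 to 3, against -0.95, -0.39 and -0.66 on sham arrays 1 to 3. The groups overlapped, with orchidectomized 3 the lowest and the array labelled sham 2 the highest. The means were -1.09 ± 0.31 in orchidectomized and -0.67 ± 0.28 in sham animals, a difference of -0.43 (SE 0.25, 95% interval -1.06 to 0.21, limma unadjusted p = 0.148, adjusted p = 0.775). Leaving out the array labelled sham 2 gave a sham mean of -0.80 ± 0.20 and a difference of -0.29 (SE 0.22, interval -0.83 to 0.25, limma adjusted p = 0.988), -0.50 within the shared slide and -0.15 within the shared scan day. The value was below 0 in each of these.

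**Figure D3:**
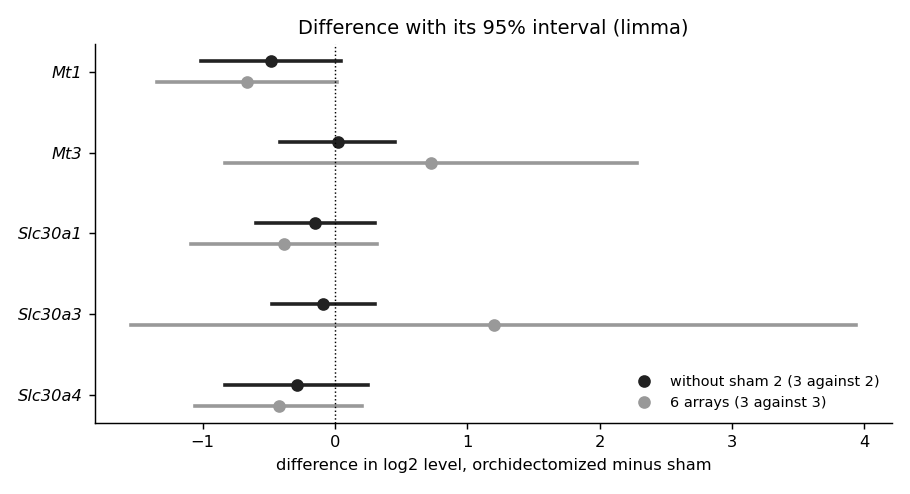
Difference in log2 level, orchidectomized minus sham (horizontal axis), with its 95% interval for each of the 5 genes, over 6 arrays and with the array labelled sham 2 left out. All 10 intervals include 0, and those of Mt3 and Slc30a3 are the widest over 6 arrays and much narrower without that array.

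The 5 genes did not move in 1 direction on the array labelled sham 2. Mt1 was 1.59-fold, Slc30a1 1.86-fold and Slc30a4 1.47-fold above the median of the other 5 arrays, and each was above all of them. The median of the other 5 arrays was 4.49-fold above the array labelled sham 2 for Mt3 and 13.5-fold above it for Slc30a3, and both were below all of them. Over all tested probes, 40.2% were above and 40.3% below the range of the other 5 arrays, and 18.8% and 24.0% were more than 2-fold above or below their median, so values outside the range were common there. These signs were the same under normexp, quantile and median scaling and in the deposited values. Slc30a3, the neuronal vesicle transporter, had the widest shift of the 5 genes. Glutamatergic neuron markers were lower on that array than on any other in 9 of 9 cases. The same held for GABAergic interneuron (7 of 7), astrocyte (7 of 7), oligodendrocyte (6 of 6) and microglia (5 of 5) markers, so the glutamatergic list was not alone in this.

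**Figure D4:**
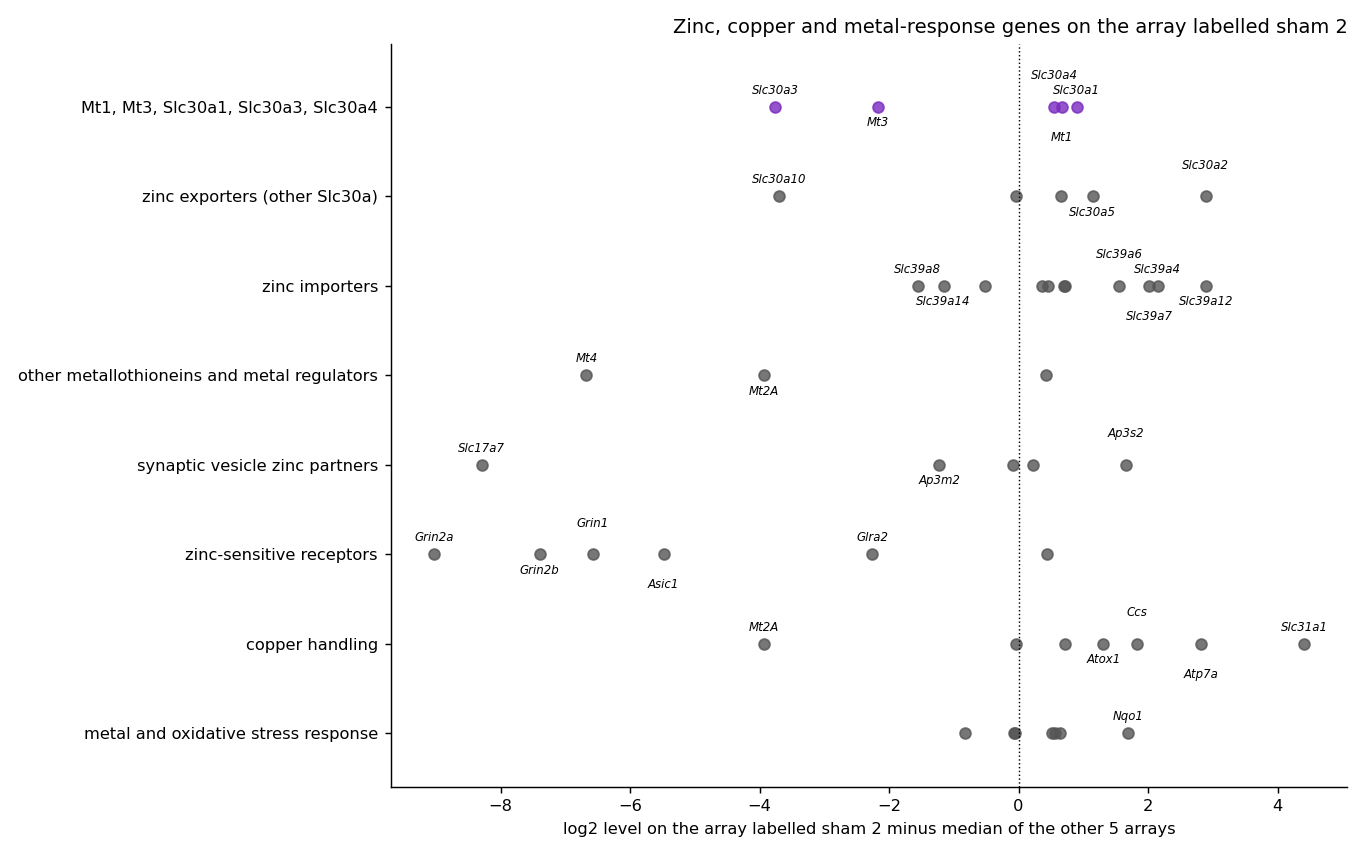
Log2 level on the array labelled sham 2 minus the median of the other 5 arrays (horizontal axis) for the 5 genes (top row) and for the tested genes of each other list, each point 1 gene. Slc30a3 and Mt3 lie to the left and the other 3 genes to the right, and several neuronal receptor genes lie farther left with a signal not well above background on that array.

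The rest of the zinc pathway was read from lists of 52 genes, of which 47 had a probe and 43 were tested. Ftl1 and Fth1, which encode the ferritin subunits, were saturated on 6 of 6 arrays and have no measured difference, which left 41. None of the 41 had an adjusted or an unadjusted p under 0.05 in either comparison with limma. Over 6 arrays 17 were higher and 24 lower in the orchidectomized animals, with a median difference of -0.10, and without the array labelled sham 2 there were 21 higher and 20 lower, with a median of 0.0068. Without that array the groups did not overlap for 6 of the 41, 4 higher and 2 lower, against 16.3% of all probes.

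Among the other Slc30 exporters, 5 of 6 with a probe were tested, and without the array labelled sham 2 there were 2 higher and 3 lower, with a median of -0.13. Slc30a7 and Slc30a10 had differences of -0.13 and -0.23 in that comparison, and Slc30a5 0.27. Slc30a2 was not well above background on orchidectomized 3, so its difference of -0.52 rests in part on a value at background. Slc30a7 fills the Golgi with zinc, Slc30a5 does so for the early secretory pathway, and Slc30a10 exports manganese in humans. On the array labelled sham 2, Slc30a2 was 2.89 and Slc30a5 1.15 above the median of the other 5, while Slc30a10 was not well above background there.

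Of 14 Slc39 importers, 12 had a probe and 11 were tested, with 4 higher and 7 lower without the array labelled sham 2 and a median of -0.09. Slc39a12, an importer expressed strongly in brain, had levels of -0.53, -0.45 and 0.48 on orchidectomized arrays 1 to 3, against 0.51, 3.15 and 0.25 on sham arrays 1 to 3. The groups overlapped without the array labelled sham 2, where the difference was -0.55 (SE 0.33, limma unadjusted p = 0.153). Slc39a8, an importer of zinc and manganese, had levels of -2.81, -2.60 and -2.73 on orchidectomized arrays, against -2.87, -4.37 and -3.07 on sham arrays, and did not overlap between groups, with a difference of 0.26 (SE 0.14, limma unadjusted p = 0.123). Slc39a9 and Slc39a7, which releases zinc from the endoplasmic reticulum, were the other importers whose groups did not overlap without the array labelled sham 2, with differences of 0.17 and 0.11. The gap of Slc39a7 was very narrow, with orchidectomized 1 at -0.416 and sham 3 at -0.418. Thus 3 of 11 importers did not overlap with orchidectomized higher, against 6.24% of all tested probes. On the array labelled sham 2, 8 of the 11 importers were above all others and 3 below, against 40.2% and 40.3% of all tested probes. Slc39a12, Slc39a4, Slc39a7 and Slc39a6 were 2.90, 2.15, 2.02 and 1.56 above the median of the other 5. Slc39a14 was counted among those below by its brighter probe, which differed from that median by -1.16. Its second probe differed by 0.52 and lay above all other arrays, so the probes of this gene disagreed there.

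Mtf1, the metal-responsive transcription factor that drives the metallothioneins, had levels of -2.73, -2.82 and -2.92 on orchidectomized arrays 1 to 3, against -2.61, -2.30 and -2.64 on sham arrays 1 to 3. Its groups did not overlap in either comparison, with orchidectomized lower. That was so for 4.74% of all tested probes over 6 arrays and for 10.0% without the array labelled sham 2. Without that array its difference was -0.21 (SE 0.13, limma unadjusted p = 0.164). Whether its level bears on that of Mt1 was not tested. Mt2A, the other widely made metallothionein, has 2 probes. The probe spotted 10 times read 2.94, 3.24 and 2.88 on orchidectomized arrays, against 3.33, -0.90 and 3.04 on sham arrays, and differed by -0.17 (SE 0.18) without the array labelled sham 2. The other Mt2A probe read 2.19, 2.33 and 2.30 on orchidectomized arrays, against 2.53, 2.29 and 2.38 on sham arrays, with a difference of -0.19 (SE 0.13, limma unadjusted p = 0.208). The 2 probes disagreed on the array labelled sham 2, where the first lay 3.94 log2 units under the median of the other 5 and the second 0.04 under it. Mt4, a metallothionein of stratified epithelia, was at -2.69, -2.73 and -1.98 on orchidectomized arrays, against -2.54 and -3.13 on sham 1 and sham 3, and was not well above background on the array labelled sham 2. Metallothionein transcripts are alike in sequence, and whether a probe also bound those of its relatives was not tested.

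**Figure D5:**
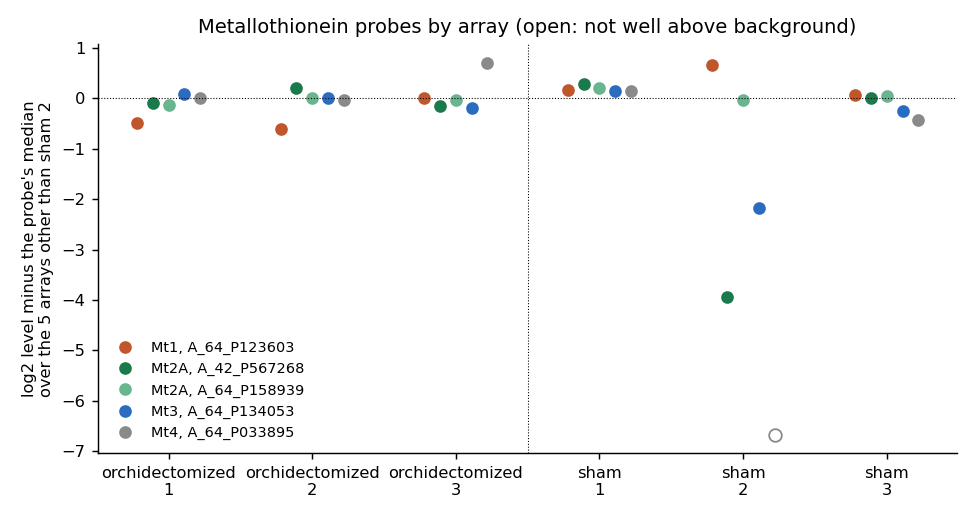
Log2 level of each metallothionein probe minus its own median over the 5 arrays other than sham 2 (vertical axis), on the 3 orchidectomized and 3 sham arrays, with an open symbol where the probe was not well above background. On the array labelled sham 2, Mt1 lies above 0, 1 of the 2 Mt2A probes lies near 0, and Mt3, the other Mt2A probe and Mt4 lie below.

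Partners of Slc30a3 at the vesicle and the receptors on which released zinc acts showed no difference that passed the test. Ap3d1, a subunit of the AP-3 adaptor that carries Slc30a3 to synaptic vesicles in mice, had a difference of 0.25 without the array labelled sham 2 (SE 0.14, limma unadjusted p = 0.127), with a saturated spot on 2 of 6 arrays. Its groups did not overlap, which held with orchidectomized higher for 6.24% of all tested probes. Clcn3, a chloride and proton exchanger of vesicles, differed by 0.35 (SE 0.35) at its brighter probe, with 0.033 to 0.59 when 1 array was left out, and by 0.05 (SE 0.16) at its other probe. Ap3m2 differed by -0.19 (SE 0.15) and Slc17a7, the vesicular glutamate transporter, by -0.16 (SE 0.22). Slc17a7 was not well above background on the array labelled sham 2, the array on which Slc30a3 was low. Of the receptor genes, Grin1, Grin2a and Grin2b, subunits of the NMDA receptor, which zinc inhibits, differed by -0.60, -0.14 and -0.11 without the array labelled sham 2, and the acid-sensing channel Asic1 by 0.01. Grin1 was lowest on orchidectomized 3, at -3.09, against -1.37 and -1.52 on orchidectomized 1 and 2. Without orchidectomized 3 its difference was -0.056, and its second probe gave -0.30 with all 5 arrays. The probes of Grin1, Grin2a, Grin2b and Asic1 were not well above background on the array labelled sham 2. The glycine receptor subunit Glra2 differed by 0.15 (SE 0.21) without the array labelled sham 2, but it had saturated spots on 4 of 6 arrays.

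Copper handling and oxidative stress genes, whose products share ligands or regulators with the metallothioneins, had medians of 0.09 over 7 genes and 0.026 over the 5 that were tested and not saturated throughout, without the array labelled sham 2. Sod1, the copper- and zinc-containing superoxide dismutase, differed by 0.26 (SE 0.18, limma unadjusted p = 0.211), Ccs, its copper chaperone, by 0.16 and the copper pump Atp7a by 0.11. Atp7b, of the same list, differed by -0.11 at its brighter probe, which enters the median. At its other probe it differed by -0.51 (SE 0.31, limma unadjusted p = 0.151). Nqo1, a quinone reductase, differed by -0.24 and Gclc, the catalytic subunit for the first step of glutathione synthesis, by -0.17, and the groups of Gclc did not overlap. The gap of Gclc was narrow, with orchidectomized 1 at 1.234 and sham 3 at 1.246. In that comparison 10.0% of all tested probes did not overlap with orchidectomized lower. On the array labelled sham 2, 5 of the 7 copper genes were above all other arrays, with the copper importer Slc31a1 at 4.41, Atp7a at 2.82, Ccs at 1.83 and the chaperone Atox1 at 1.31 over the median of the other 5.

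For each of the 5 genes the 2 named genes most alike over the 6 arrays were found among 15151, by the root mean square difference between log2 levels each centred on its own mean. Mt1 was closest to Cnksr1 (0.09) and Nipa2 (0.12), Mt3 to Gstm7 (0.06) and Cx3cr1 (0.07), and Slc30a1 to Tfpi (0.04) and Arhgef3 (0.05). Slc30a3 was closest to Rasal1 (0.05) and Fam234b (0.06), and Slc30a4 to Cdk8 (0.06) and Gcfc2 (0.07). The search ran over all 6 arrays, so for Mt3 and Slc30a3 the array labelled sham 2 makes up most of the pattern that was matched. Cx3cr1 is a microglial gene that was also low on that array, at -0.48, against 1.27 to 1.85 on the other 5.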

How the data were processed

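Hippocampal total RNA of orchidectomized and sham-operated male Wistar rats (3 samples each) was labelled with Cy3, 1 array per sample. The labels call the samples biological replicates, and groups and replicate numbers come from them. Per the file headers, Agilent Feature Extraction 10.5.1.1 read the arrays and subtracted background to give the processed signal, an intensity, and it also set the flags used here. The authors' deposited table holds log2 values equal to the log2 processed signal plus 1 constant per array (-0.32 to 0.72), and its column medians were 8.02, 7.94 and 7.91 on the orchidectomized arrays, in replicate order, against 7.77, 7.62 and 8.04 on the sham arrays. The scale is log2, while the origin of the constants, which sets the centring, is unknown. The number of arrays limits the precision.

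Log2 processed signals of a probe's unflagged spots were averaged and each array's 75th percentile was subtracted. A probe was tested if, in at least 1 group, every array had it well above background. The test was limma's moderated one (version 3.58.1, lmFit then eBayes, R 4.3.3), two-sided, and p-values were adjusted over all tested probes by Benjamini-Hochberg. It was run on the 6 arrays and again with the array labelled sham 2 left out. The files used here carry no gene symbols. RefSeq accessions were matched to the GRCr8 gene table, which named 18004 of 30367 probes, and the array's own build is another, so only promoter coordinates are given. For a gene with several probes the brightest was used.

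The members, lists and tests were chosen with earlier results of these data known. Named genes were all members, up to 4 genes per list with the smallest unadjusted p without the array labelled sham 2, up to 4 that differed most on that array, and the genes most like each member. Other genes were named after their values were seen. These were Slc39a7 in the comparison without that array, since its groups did not overlap, and Atox1 on the array labelled sham 2. Slc39a14 and Atp7b were named because their probes differed. The second probes of Mt2A, Clcn3 and Grin1 were also named afterwards.

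Orchidectomized 1 and 2 shared slide 1. Slide 2 carried orchidectomized 3 with sham 1, slide 3 sham 3, and slide 4 the array labelled sham 2. Day 1 held the orchidectomized arrays and sham 1, day 2 the other 2. Deviations of same-numbered samples from their group means correlated at 0.027, -0.023 and -0.018. The sham mean included the array labelled sham 2, which dominates the sham deviations. These values therefore cannot show whether replicate numbers pair the samples, and the main fits did not pair them. Alternatives were normexp with an offset of 50 on median signals (planned on mean signals), quantile and median scaling, deposited values, other filters, blocks, array weights and leaving out each array. The level on the array labelled sham 2 under other scalings was added after the data were seen. Over 6 arrays the median of all tested differences was -0.10 under median scaling, against -0.02 in the main setting. The fit was tested on simulated data.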

Additional observations from a re-analysis of the deposited data

How the results depend on the processing

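No difference of the 5 genes passed the adjusted threshold under any alternative run. Mt1 and Slc30a4 stayed below 0 in every setting run. Slc30a4 reached -0.044 over 6 arrays with array weights and, when 1 array was left out, ran from -0.57 to -0.25 there and from -0.43 to -0.11 in the other comparison. For Mt1 the lowest adjusted p was 0.136, over 6 arrays with array weights, and its range when 1 array was left out was -0.85 to -0.48 in the 6-array comparison and -0.67 to -0.36 in the other. The groups of Mt1 overlapped under normexp and in the deposited values. The replicate number as a block gave Mt1 -0.67 in the 6-array comparison and -0.36 in the other, and called 0 probes in both comparisons. Probes called among all those tested were 0 over 6 arrays, but 1 with quantile scaling and 13 with array weights. Without the array labelled sham 2 they were 0, but 2 with quantile scaling, 1 with median scaling, 10 with a scan day block, 18 in the deposited table and 0 to 251 when a further array was left out (22 without sham 1 and 251 without sham 3). The cause was not tested.

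Signs turned for Mt3 over 6 arrays with slide (-0.33) or scan day (-0.17) as a block and with array weights (-0.046), and without the array labelled sham 2 under normexp (-0.019), quantile scaling (-0.18), slide (-0.33) and scan day (-0.17). Slc30a1 turned with slide (0.22) and scan day (0.037) in both comparisons. With slide as a block the difference rests on orchidectomized 3 and sham 1 alone. With scan day as a block it rests on the orchidectomized arrays and sham 1. These block values therefore repeat those within the shared slide and scan day, and they are the same in both comparisons. Slc30a3 turned over 6 arrays with slide (-0.10) and without the array labelled sham 2 with scan day (0.038). Leaving out 1 array gave 0.02 to 1.18 for Mt3, -0.60 to -0.15 for Slc30a1 and -0.088 to 1.91 for Slc30a3 over 6 arrays. Without the array labelled sham 2 it gave -0.17 to 0.22, -0.34 to 0.037 and -0.21 to 0.038 for these genes, -0.35 to 0.029 for Slc17a7, -0.23 to 0.032 for Grin2a, -0.15 to 0.44 for the partly saturated Glra2 and -0.024 to 0.31 for Ccs. In that comparison normexp gave 0.19 for Slc30a2 and 0.16 for Slc30a10, scan day as a block 0.029 for Slc17a7 and -0.15 for Glra2, slide as a block -0.050 for Glra2 and array weights 0.0042 for Grin2a. Median scaling put the second Mt2A probe 0.20 above the median of the other 5 on the array labelled sham 2. The cause of these turns was not tested.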
